A study of Mus musculus with 54 samples.

Results

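The *Cd5* knockout was compared with WT in naive CD4+ T cells after 20 h of stimulation, a comparison of 6 of the 54 libraries of the series. Its members were chosen by label only, as the 3 libraries titled *Cd5*-/- and the 3 titled WT at 20 h in the CD5/CD6 experiment. That experiment holds 36 libraries in 12 conditions, which are WT, *Cd5*-/-, *Cd6*-/-, and *Cd5*-/-*Cd6*-/- cells at 0, 4, and 20 h. Its other genotypes and times are used below beside the compared libraries. WT cells of a separate LAT experiment, sorted from *Lat*fl-dtr maT-Cre mice, serve as a reference for direction. The mice were on a C57BL/6 background and 8 to 10 wk old, and the *Cd5*-/- line, made earlier, had been backcrossed to C57BL/6. The *Cd6*-/- and *Cd5*-/-*Cd6*-/- lines were instead made by genome editing of C57BL/6 embryos. Lymph node and spleen cells were pooled, and a magnetic kit gave naive CD4+ T cells of both genotypes at a purity above 95%, which were cultured for 20 h on plate-bound anti-CD3 (3 µg/ml) with soluble anti-CD28 (1 µg/ml). The antibodies stand in for antigen (the TCR signal) and for the costimulatory ligands of CD28. How many mice made up a library, and whether libraries with the same number were prepared together, are not given in the sources used here. The p-values of the main fits measure the spread between libraries, estimated over more libraries than the 6 compared. Where the replicate number is fitted as a block, they measure the spread that is left after it.

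CD5 is a scavenger receptor-like glycoprotein of T cells that is phosphorylated near the engaged TCR and is best known as a negative regulator of TCR signaling. Its cytoplasmic tail has been linked to phosphatases and to ubiquitin ligases of the CBL family, and its surface level follows the strength of the signals a thymocyte received during selection. CD6 is its close relative, and the genes of the pair are neighbors on chromosome 19. Naive CD4+ T cells stimulated through the TCR and CD28 leave quiescence within a day: they lower the genes of lymph node homing and of the resting state, raise glycolysis and nutrient transport, and prepare to divide.

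The 6 libraries held between 22434312 and 41571768 reads assigned to genes. Levels are given as normalized CPM, in which counts are divided by the TMM-scaled library size, and 3 reads correspond to between 0.0722 and 0.134 CPM. Values of a group are listed in the order of replicate numbers 1, 2, and 3. CPM does not correct for gene length and compares a gene between libraries, not genes with each other. Among the 36 libraries, the 0 h libraries 2 labelled *Cd5*-/- and *Cd6*-/- held *Cd5* and *Cd6* reads that go against their labels. They are not among the 6 compared here, but they share in the estimate of the spread in the fit without a block, and counts are given with and without them. The defining genes of CD4+ T cells, a list of 12, summed to between 4843 and 5674 CPM in WT and between 4679 and 5897 CPM in *Cd5*-/- cells, and edgeR called 0 of the 12 in either fit described below, with 1 at an unadjusted p under 0.05 in the fit with a block.

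*Cd5* itself was examined first. It spans positions 10717116 to 10739002 of chromosome 19 (GRCm38, minus strand). It was at 1004, 1257, and 1139.6 CPM in WT cells and at 12.5, 13.9, and 11.4 CPM in *Cd5*-/- cells (-6.49 on the log2 scale, SE 0.40, adjusted p = 1.43e-21, edgeR quasi-likelihood test without a block). The groups were far apart, and the remaining *Cd5* reads in the knockout, between 279 and 562 a library, were well above those of *Cd5*-/-*Cd6*-/- cells, which were at 0.237 to 0.663 CPM at 20 h. The neighbor *Cd6* was at 937, 1131, and 1044 CPM in WT and at 1187, 1309, and 1331 CPM in *Cd5*-/- cells, so that every *Cd5*-/- library lay above every WT library. The log2 fold change of *Cd6* was 0.29 (SE 0.06, adjusted p = 0.0215) with the replicate number as a block, and 0.30 (SE 0.26, adjusted p = 1) without it. The *Cd6* call was made in 2 of the 6 fits that left out a compared library.

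Without a block, 7 of 32290 genes were called at an adjusted p under 0.05. The 4 genes higher in *Cd5*-/- cells were *Gm8116*, *Wdfy1*, *Gcnt1*, and *Tcrg-C2* (0.0124% of the genes tested), and the 3 lower were *Cd5*, *Carnmt1*, and *1110059E24Rik* (0.00929%). At a fold above 2 there were 6 (0.0186%). At an unadjusted p under 0.05 there were 723. Without the doubtful 0 h libraries, 22 genes were called, 17 of them at a fold above 2, and leaving out *Cd5*-/- library 2 of the compared libraries left 3. *Wdfy1*, *Gcnt1*, *Tcrg-C2*, and *1110059E24Rik* were not called when the 12 libraries of 20 h were fitted alone (adjusted p 0.559, 0.091, 0.192, and 0.159, edgeR).

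**Figure D1:**
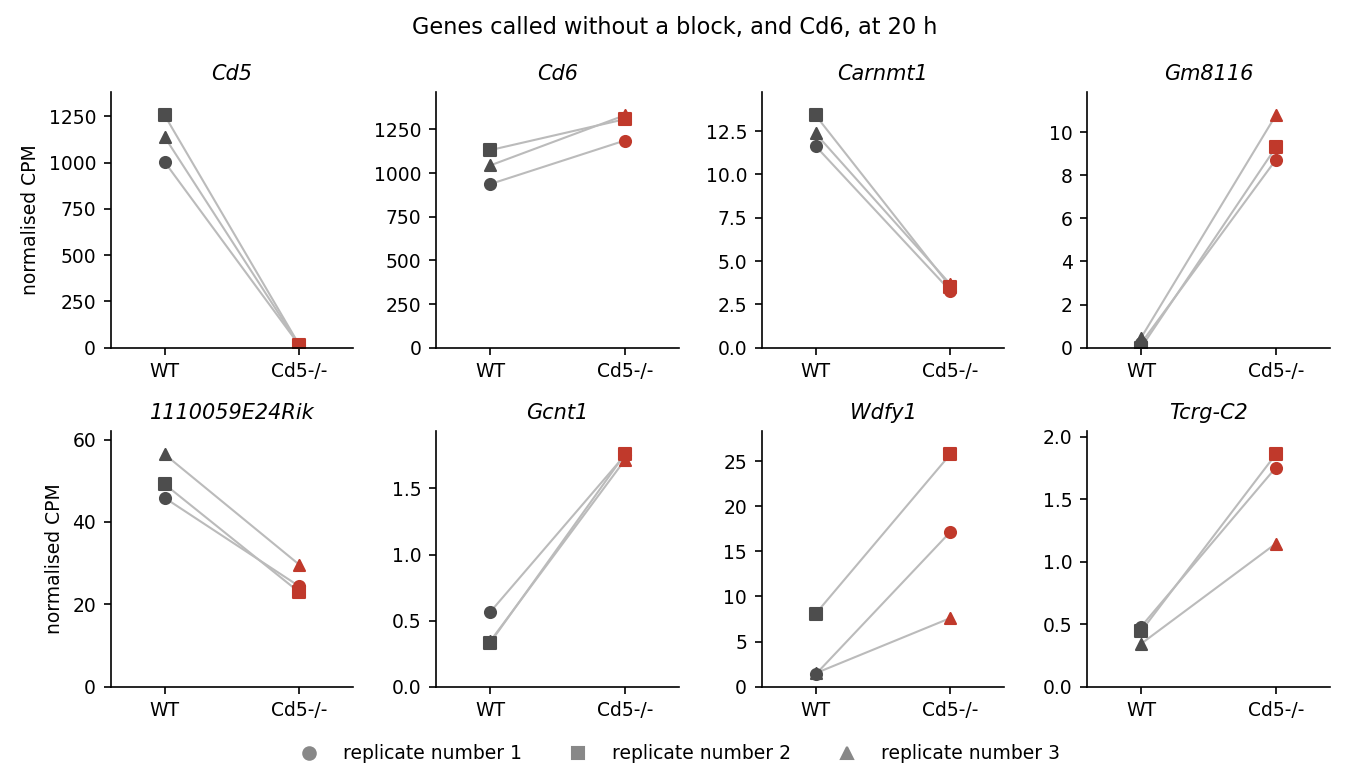
Normalized CPM (vertical axis, linear and starting at 0) of the 7 genes called without a block and of *Cd6* in WT (gray) and *Cd5*-/- (red) libraries at 20 h, with lines joining libraries of the same replicate number (circle 1, square 2, triangle 3). The groups are separate for every gene shown except *Wdfy1*, in which *Cd5*-/- library 3 (7.61 CPM) lies below WT library 2 (8.07 CPM).

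*Carnmt1* and *Gm8116* moved in opposite directions, and *Gm8116* shares most of its sequence with *Carnmt1*. *Carnmt1*, which encodes carnosine N-methyltransferase, lies on the plus strand of chromosome 19 from 18670764 to 18707200, 7.93 Mb from *Cd5*. *Gm8116* is annotated as a processed pseudogene, an intronless copy of a messenger RNA, at positions 78820638 to 78821838 of chromosome 9 (minus strand). Its 1201 bases aligned to the coding stretch of the *Carnmt1* transcript without gaps, with 1199 identical bases (99.8%). The differences, counted from the 5′ end of the *Carnmt1* transcript with its base first, are C374G and A1112T, both in the coding sequence. The 41 bases around each are shown because they are the places where a read can tell the copies apart in this stretch. The differing base is in capitals, and the sequences were read from the GENCODE transcripts of GRCm38, 5′ to 3′.
Carnmt1 at C374G: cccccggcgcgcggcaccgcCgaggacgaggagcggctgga
Gm8116 at C374G: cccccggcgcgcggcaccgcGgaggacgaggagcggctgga
Carnmt1 at A1112T: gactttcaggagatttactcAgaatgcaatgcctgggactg
Gm8116 at A1112T: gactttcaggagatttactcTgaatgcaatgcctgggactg

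Of the 1152 stretches of 50 bases in *Gm8116*, the read length, 1052 (91.3%) also occur in *Carnmt1* or another transcript, and 21.7% of those of *Carnmt1* occur elsewhere. How reads that match several genes were counted is not given in the sources used here. *Carnmt1* was at 11.6, 13.4, and 12.4 CPM in WT and 3.28, 3.52, and 3.66 CPM in *Cd5*-/- cells (log2 fold change -1.84, SE 0.28, adjusted p = 9.79e-05). *Gm8116* was at 0.197, 0, and 0.457 CPM in WT and 8.71, 9.29, and 10.8 CPM in *Cd5*-/- cells (5.45, SE 0.68, adjusted p = 1.87e-07). The fall of one and the rise of the other were of like size in CPM. The summed level of *Carnmt1*, *Gm8116*, and the further copy *Gm7622* was 12.7 ± 0.814 CPM (SD, n = 3) in WT and 13.1 ± 1.24 CPM (SD, n = 3) in *Cd5*-/- cells, a ratio of 1.03 (p = 0.6, two-sided exact permutation test, of which 0.1 is the smallest p possible with 3 against 3). *Gm8116* took between 0 and 3.56% of the summed reads in WT cells and between 72.3 and 74.7% in *Cd5*-/- cells. The split was present at 4 h, with 0.281 to 0.397% in WT and 58.6 to 70.2% in *Cd5*-/- cells. In *Cd6*-/- cells at 20 h *Gm8116* was at 0.247, 0.197, and 0.221 CPM, and in *Cd5*-/-*Cd6*-/- cells at 0.0593, 0.299, and 0.147 CPM, so that its level was high in the libraries of *Cd5*-/- cells and low in the other genotypes.

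**Figure D2:**
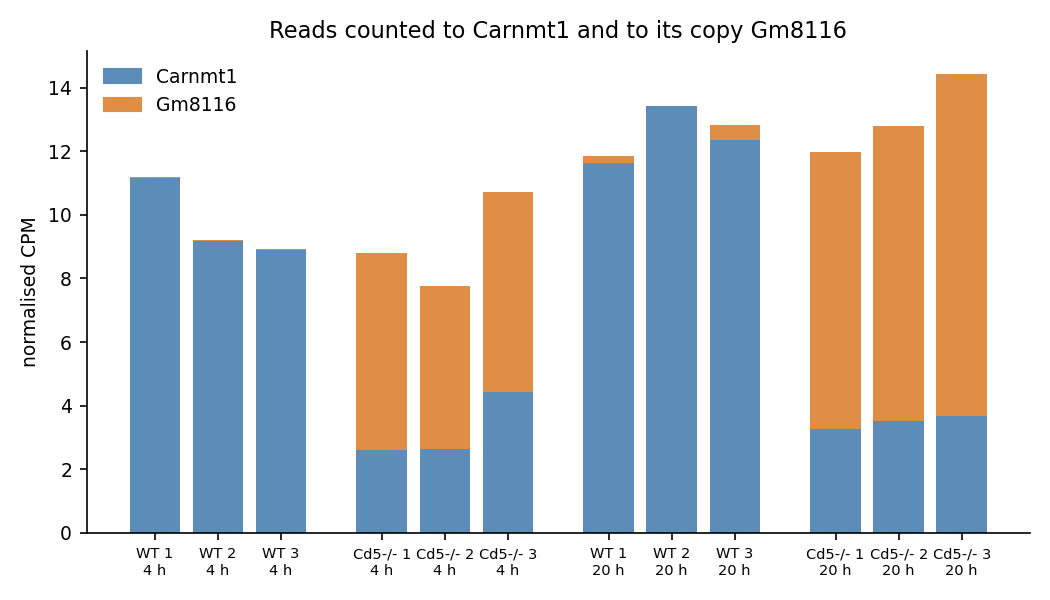
Stacked bars of normalized CPM counted to *Carnmt1* (blue) and to *Gm8116* (orange) in each WT and *Cd5*-/- library at 4 h and 20 h. Bars of both genotypes reach similar heights within a time, while *Gm8116* makes up at least 58.6% of each *Cd5*-/- bar and at most 3.56% of each WT bar.

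*1110059E24Rik*, a protein coding gene of no assigned function, lies 10.8 Mb from *Cd5*, from 21581202 to 21652976 of chromosome 19. It was at 45.9, 49.2, and 56.4 CPM in WT and 24.3, 22.9, and 29.6 CPM in *Cd5*-/- cells, and the groups did not overlap. Its log2 fold change was -0.98 (SE 0.18, adjusted p = 0.00701) without the block and -0.99 (SE 0.08, adjusted p = 5.98e-06) with it. Without the block the call was lost on leaving out *Cd5*-/- library 1, *Cd5*-/- library 2, or WT library 3 (adjusted p from 0.0537 to 0.135). *Gcnt1*, a glycosyltransferase that builds the branched O-glycans of selectin ligands, lies 6.59 Mb from *Cd5*, from 17326141 to 17372844. Its counts were low, 20, 9, and 9 reads in WT and 39, 71, and 60 in *Cd5*-/- libraries, or 0.564, 0.332, and 0.343 against 1.75, 1.76, and 1.72 CPM. The log2 fold change was 2.04 (SE 0.43, adjusted p = 0.038) without the block, and leaving out any of the 6 libraries ended that call (adjusted p from 0.0524 to 0.31). With the block it was 2.05 (SE 0.34, adjusted p = 0.00497) and was called in all 6 such fits.

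With *Carnmt1*, *Gcnt1*, and *1110059E24Rik*, 3 of the 6 called genes other than *Cd5* lay on the chromosome of the targeted gene. *Carnmt1* is counted here by its own reads, although its level summed with its copies was 12.7 CPM in WT and 13.1 CPM in *Cd5*-/- cells. Within 10 Mb of *Cd5*, 2 of 248 genes that averaged 10 counts or more were called, and within 2 Mb 0 of 83. With the block, 7 of 241 tested genes within 10 Mb (2.9%) and 13 of 464 on the whole of chromosome 19 (2.8%) were called, against 1.94% of the 12638 genes of other chromosomes. Neighboring genes are not independent, and the difference in shares was not tested.

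*Wdfy1*, which encodes an endosomal protein with a FYVE domain, was at 1.35, 8.07, and 1.48 CPM in WT and 17.2, 25.8, and 7.61 CPM in *Cd5*-/- cells. It was higher in the knockout in each of the 3 same-numbered pairs, although the groups overlapped. The log2 fold change was 2.22 (SE 0.43, adjusted p = 0.0118) without the block, a call that was lost without *Cd5*-/- library 2 (adjusted p = 0.166) or WT library 1 (0.207). It was also lost with DESeq2 in place of edgeR (adjusted p = 0.325). With the block it was 2.33 (SE 0.34, adjusted p = 0.00265). The long noncoding RNA *Gm2682* of chromosome 15 was another gene with an uneven pattern. It was at 12.2, 9.18, and 7.31 CPM in WT libraries, and at 0, 0.0248, and 3.49 CPM in *Cd5*-/- libraries, in which 0, 1, and 122 reads were counted. *Cd5*-/- library 3 stood apart from the other two, as it did at 4 h, where the levels were 0.152, 0.117, and 15.7 CPM against 27.8, 41.4, and 32.3 CPM in WT. Its log2 fold change at 20 h was -2.92 (SE 0.64, adjusted p = 0.0264) with the block, a call made in 1 of the 6 fits that left out a library.

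Libraries with the same replicate number deviated together. Over 10792 genes that averaged 50 counts or more, the deviations of WT and *Cd5*-/- libraries from their group means correlated across genes with r of 0.589, 0.268, and 0.689 for numbers 1, 2, and 3, and every library correlated best with its own number. WT libraries 1 and 2, 1 and 3, and 2 and 3 differed by over 2-fold in 698, 1355, and 955 genes, and *Cd5*-/- libraries in 699, 1284, and 1021, whereas libraries of the same number differed between the genotypes in 623, 629, and 665. The summed level of *Xist* and 4 Y-linked genes, nearly all of it *Xist*, followed the number too, at 78.3, 29.7, and 24.5 CPM in WT and at 73.3, 33.0, and 21.5 CPM in *Cd5*-/- cells. The replicate number was therefore also fitted as a block, in the 12 libraries of 20 h, an arrangement chosen after seeing the data. The spread between libraries (biological coefficient of variation) was 20.3% without the block and 6.36% with it.

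With the block, 259 of 13103 genes were called, 80 higher (0.611%) and 179 lower (1.37%) in *Cd5*-/- cells. At a fold above 2 there were 24 (0.183%), and 1871 genes had an unadjusted p under 0.05. All 7 genes called without the block were among the 259. Most changes were small. The median absolute log2 fold change was 0.35 among the higher and 0.44 among the lower genes, and 60 of 80 and 122 of 179 changed by less than 1.5-fold. In 34 of the 80 higher and 94 of the 179 lower genes the groups did not overlap, beside 3.1% and 3.8% of all genes tested that lay higher or lower without overlap. All 259 moved the same way in each of the 3 pairs, as did 36.5% of all genes tested, an agreement that a call in a fit blocked on those pairs largely builds in. Leaving out a compared library gave between 85 and 190 calls, with 85 without *Cd5*-/- library 1, 89 without WT library 3, 140 without *Cd5*-/- library 3, and 148 without WT library 1. In all 6 of those fits, 19 higher and 42 lower genes were called, and the genes below are given with the number of those fits that called them. With the replicate number as a block in all 36 libraries and all 32290 genes, 5 genes were higher and 12 lower.

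**Figure D3:**
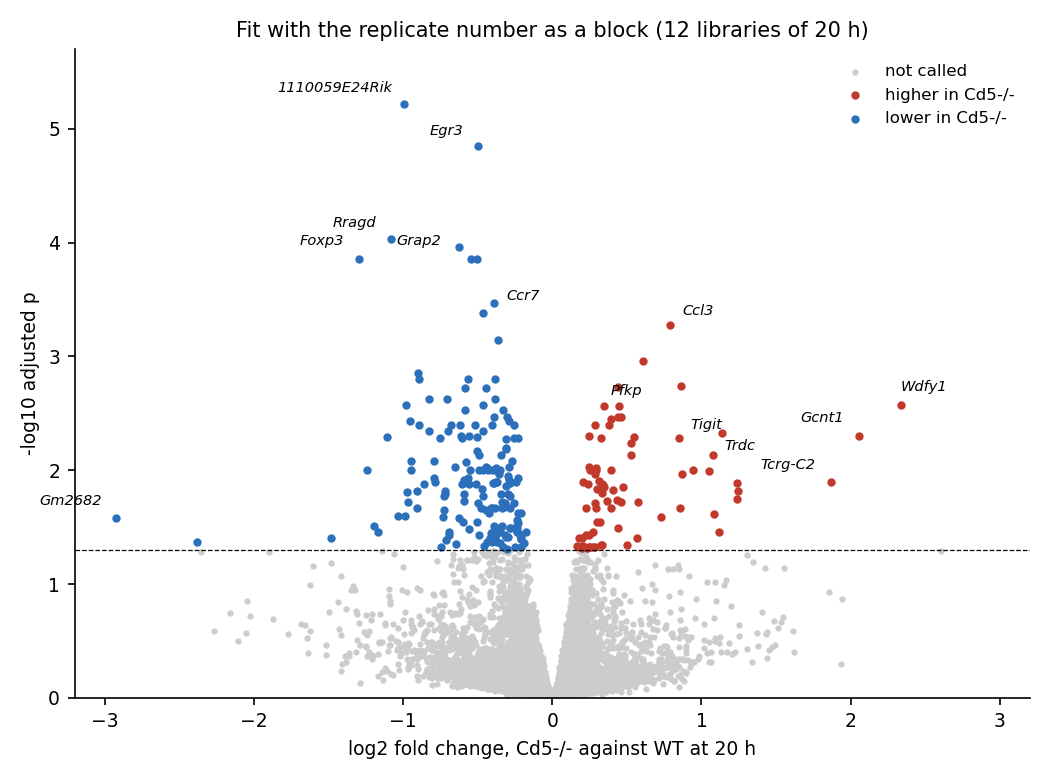
Log2 fold change of *Cd5*-/- against WT at 20 h (horizontal axis) and -log10 of the adjusted p (vertical axis) for 13103 genes with the replicate number as a block. Red points are the 80 genes called higher, blue points those of the 179 called lower, gray points genes not called, and the dashed line is an adjusted p of 0.05. *Cd5*, *Carnmt1*, and *Gm8116* lie outside the axes, and most called genes lie within 1 log2 unit of 0.

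The counts of list members below come from the fit with the block and stand beside 0.611% higher and 1.37% lower, and 52.9% above 0, among all 13103 genes tested. Of 30 genes of the naive and quiescent state, 9 fell (30%) and 0 rose. Of the 30, 22 lay below 0 and 8 above, and the median log2 fold change was -0.24, against 0.01 over all genes tested. *Ccr7*, the chemokine receptor that guides naive T cells into lymph nodes, was at 979, 933, and 1163 CPM in WT and 749, 737, and 866 CPM in *Cd5*-/- cells. The groups did not overlap (-0.39, SE 0.04, adjusted p = 0.000336, called in all 6 fits). *Ets1*, a transcription factor of resting T cells, was at 649, 501, and 455 against 484, 428, and 324 CPM (-0.38, SE 0.06, adjusted p = 0.00234, 6 of 6 fits). *Foxo1*, the factor that sustains *Ccr7* and *Klf2* in naive T cells, was at 122, 91.9, and 72.9 against 102, 76.1, and 58.0 CPM (-0.29, SE 0.05, adjusted p = 0.00372, 6 of 6 fits). For *Ets1* and *Foxo1*, library 1 had the highest and library 3 the lowest level in both genotypes, so that the groups overlapped while each pair moved down.

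*Tcf7*, which encodes the T cell factor TCF1, was at 486, 370.2, and 334 against 389, 326, and 250.1 CPM (-0.31, SE 0.05, adjusted p = 0.00634, 5 of 6 fits). Its partner *Lef1* was lower by less (-0.21, SE 0.05, adjusted p = 0.0403, 1 of 6). The other members that fell were *Igfbp4* (-0.47, SE 0.09), the integrin gene *Itga6* (-0.31, SE 0.05), the sestrin *Sesn1* (-0.29, SE 0.06), and the antiproliferative gene *Btg1* (-0.22, SE 0.05). They were called in 3, 5, 1, and 0 of the 6 fits. *S1pr1*, the receptor for lymphoid egress, did not pass the test (-0.62, SE 0.16, adjusted p = 0.0694). None of the 30 was called without the block, where the adjusted p of each of the 9 was 1.

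Of 34 genes of the TCR complex and its proximal signaling 4 fell (11.8%, against 1.37% of all genes tested) and 0 rose, with a median of -0.05. *Grap2*, the adaptor GADS that joins LAT to SLP-76, was at 162, 118, and 98.0 against 109.5, 86.1, and 64.8 CPM (-0.54, SE 0.06, adjusted p = 0.000138, 6 of 6 fits). The others included the adaptor *Fyb* (-0.59, SE 0.11, 3 of 6 fits) and the Ras activator *Rasgrp1* (-0.29, SE 0.06, 3 of 6). Of 39 activation markers and early factors, 3 fell (7.69%) and 1 rose (2.56%). *Egr3*, a factor induced by calcium signals, was at 293, 240.00, and 199.99 against 213, 165, and 144 CPM (-0.50, SE 0.04, adjusted p = 1.42e-05, 6 of 6 fits). *Nr4a1*, the orphan receptor NUR77 that reports TCR signals, was at 370.3, 369, and 327 against 245, 268, and 249 CPM, with no overlap (-0.49, SE 0.09, adjusted p = 0.0074, 5 of 6 fits). *Egr1* was at 168, 174, and 128 against 125, 132, and 99.6 CPM (-0.40, SE 0.06, adjusted p = 0.00399, 6 of 6 fits). The member that rose was *Cd200* (0.39, SE 0.07, adjusted p = 0.00996, 2 of 6 fits).

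Other activation genes were not called. *Cd69* was at 278, 348, and 397 against 323, 373, and 401 CPM (0.10, SE 0.05, adjusted p = 0.397). *Il2ra*, the alpha chain of the IL-2 receptor, was at -0.22 on the log2 scale (SE 0.06, adjusted p = 0.0694), *Cd44* at 0.16 (SE 0.14), *Myc* at -0.06 (SE 0.06), and *Egr2*, which stayed under 3 CPM, at -0.06 (SE 0.26). The direction of *Cd69*, *Cd44*, *Myc*, and *Egr2* was not stable without the block, where it turned when single libraries were left out.

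Of 38 genes that restrain TCR signaling 3 rose (7.89%, against 0.611% of all genes tested) and 1 fell (2.63%, against 1.37%). *Ptpn6*, the phosphatase SHP-1 that has been linked to CD5, was at 321, 346, and 309 CPM in WT and 359, 417, and 384 CPM in *Cd5*-/- cells, and the groups did not overlap (0.24, SE 0.04, adjusted p = 0.00497, 6 of 6 fits). The adaptor *Sla* (0.20, SE 0.05) and the ERK phosphatase *Dusp6* (0.28, SE 0.07) rose, and the diacylglycerol kinase *Dgkz* (-0.18, SE 0.04) fell, each in 1 of the 6 fits. Among 19 genes of proteins that act with CD5, *Ptpn6* rose, *Rasa1*, a Ras GTPase-activating protein, fell (-0.29, SE 0.06, 4 of 6 fits), and 17 were not called. *Ubash3a* (0.06, SE 0.04, adjusted p = 0.604) and *Cblb* (0.11, SE 0.07, adjusted p = 0.511), regulators found with CD5 in T cells, were among those.

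**Figure D4:**
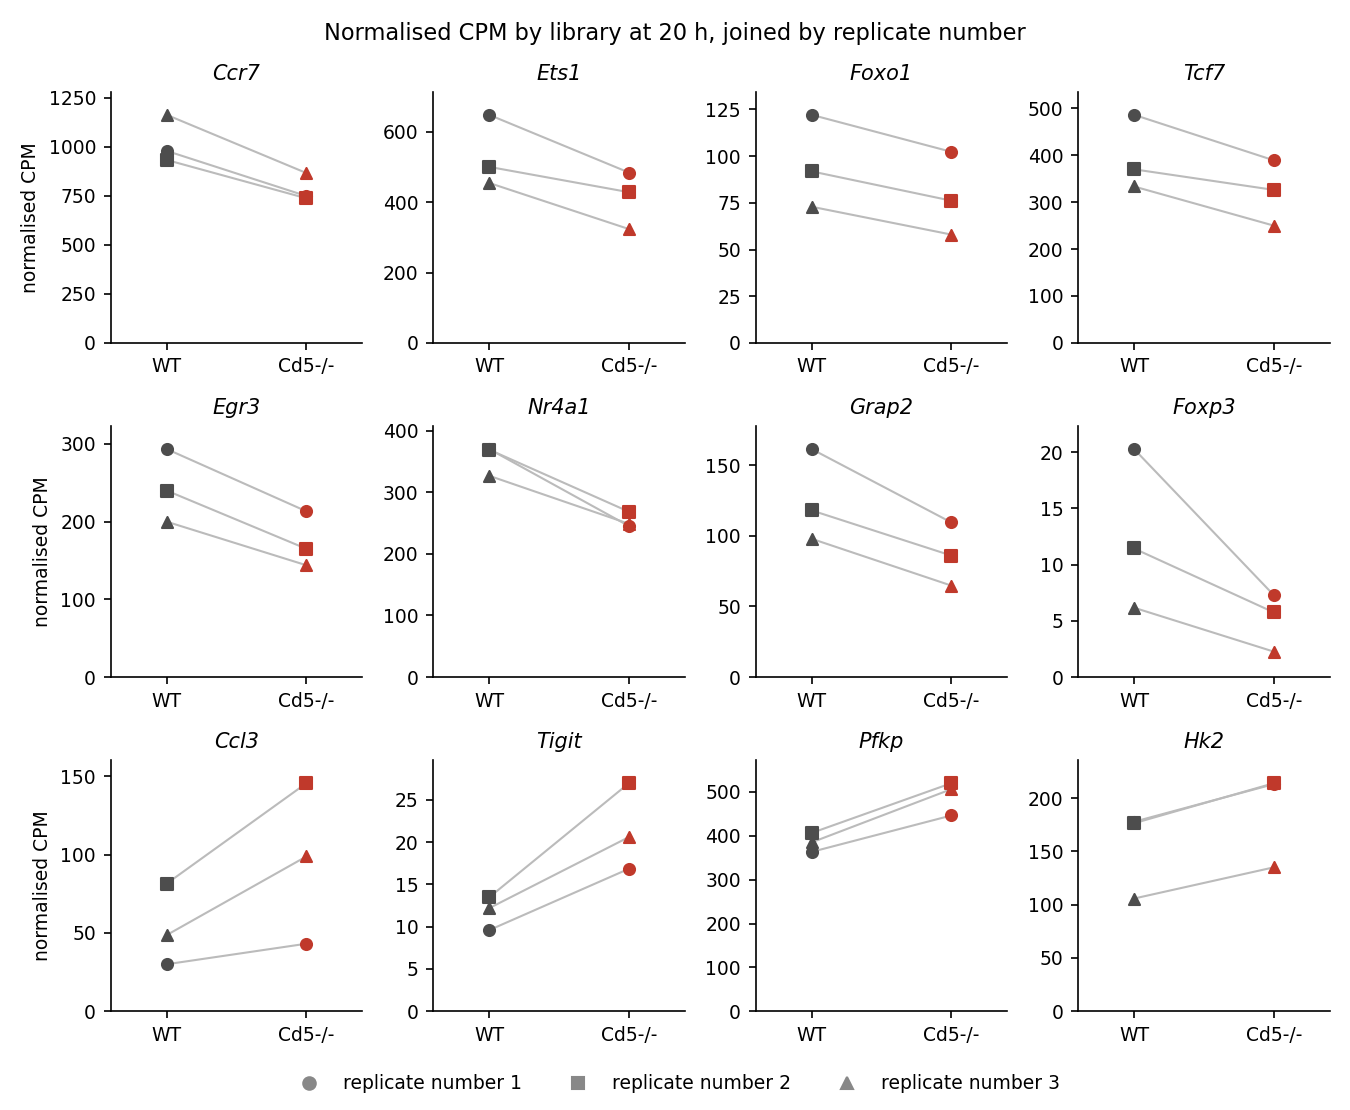
Normalized CPM (vertical axes, linear and starting at 0) of 12 genes in WT (gray) and *Cd5*-/- (red) libraries at 20 h, with lines joining libraries of the same replicate number (circle 1, square 2, triangle 3). Every line of *Ccr7*, *Ets1*, *Foxo1*, *Tcf7*, *Egr3*, *Nr4a1*, *Grap2*, and *Foxp3* falls and every line of *Ccl3*, *Tigit*, *Pfkp*, and *Hk2* rises, while the groups overlap in several panels, as in *Ccl3* (43.1 CPM in *Cd5*-/- library 1 and 81.4 CPM in WT library 2).

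Of 26 cytokine and chemokine genes tested, of 34 listed, 4 rose (15.4%, against 0.611% of all genes tested) and 1 fell. *Ccl3* was at 30.0, 81.4, and 48.6 against 43.1, 146, and 98.8 CPM (0.79, SE 0.09, adjusted p = 0.000524) and *Ccl4* at 109, 220.3, and 182 against 136, 312, and 261 CPM (0.44, SE 0.07, adjusted p = 0.00337). These chemokines of activated T cells were called in 6 of 6 fits. *Ccl5* (1.24, SE 0.25, 1 of 6 fits), below 3 CPM in every library, and *Il3* (0.86, SE 0.18, 2 of 6) rose too, and *Ltb*, lymphotoxin beta, fell (-0.39, SE 0.08, 3 of 6). *Il2* was at 104, 215, and 176 against 113, 295, and 239.95 CPM (0.32, SE 0.14, adjusted p = 0.316) and *Ifng* at 0.958, 4.05, and 5.33 against 2.11, 20.0, and 6.61 CPM (1.35, SE 0.35, adjusted p = 0.0634), neither of them called. Of 35 helper and effector factors, the granule genes *Gzmb* (1.09, SE 0.23, 1 of 6 fits) and *Nkg7* (0.44, SE 0.09, 2 of 6) rose and *Id2* fell (-0.41, SE 0.09, 2 of 6).

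Among 20 inhibitory receptors and their ligands 3 rose (15%, against 0.611% of all genes tested) and 0 fell. *Tigit* was at 9.58, 13.5, and 12.2 CPM in WT and 16.8, 27.0, and 20.6 CPM in *Cd5*-/- cells without overlap (0.85, SE 0.14, adjusted p = 0.0052, 6 of 6 fits). *Lag3* was at 104, 87.1, and 107 against 144, 138, and 129.7 CPM (0.46, SE 0.10, adjusted p = 0.0191, 2 of 6 fits) and *Btla* rose too (0.30, SE 0.07, adjusted p = 0.0285, 1 of 6). *Pdcd1*, the gene of PD-1 (0.14, SE 0.07, adjusted p = 0.418), and *Ctla4* (0.08, SE 0.12, adjusted p = 0.819) were not called.

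Of 22 glycolytic genes and nutrient transporters 5 rose (22.7%, against 0.611% of all genes tested) and 0 fell, 20 lay above 0, and the median log2 fold change was 0.14. *Pfkp*, phosphofructokinase, was at 363, 406, and 385 against 446, 519.97, and 506 CPM without overlap (0.34, SE 0.05, adjusted p = 0.00272, 6 of 6 fits). *Hk2*, hexokinase, was at 178, 176, and 106 against 213, 214, and 135 CPM (0.29, SE 0.05, adjusted p = 0.00951, 4 of 6 fits). The glucose transporter *Slc2a1* (0.29, SE 0.05) and the lactate transporters *Slc16a1* (0.20, SE 0.04) and *Slc16a3* (0.44, SE 0.10) were the others, called in 3, 3, and 1 of the 6 fits. Few genes of cell division were called. Of 40 DNA replication genes 38 lay above 0 (median 0.08) and 0 were called by edgeR with or without the block, although 14 had an unadjusted p under 0.05. The median of the replication list was 0.0085, 0.09, and 0.17 in pairs 1, 2, and 3. Of 30 mitotic genes 26 lay above 0, with a median of -0.036, 0.11, and 0.30 in pairs 1, 2, and 3, and *Cdk1* alone was called (0.26, SE 0.06, adjusted p = 0.0468, 0 of 6 fits). *Mki67* was not (0.07, SE 0.16). Of 31 genes of cholesterol and fatty acid synthesis 26 lay above 0 and 0 were called, with 7 at an unadjusted p under 0.05.

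**Figure D5:**
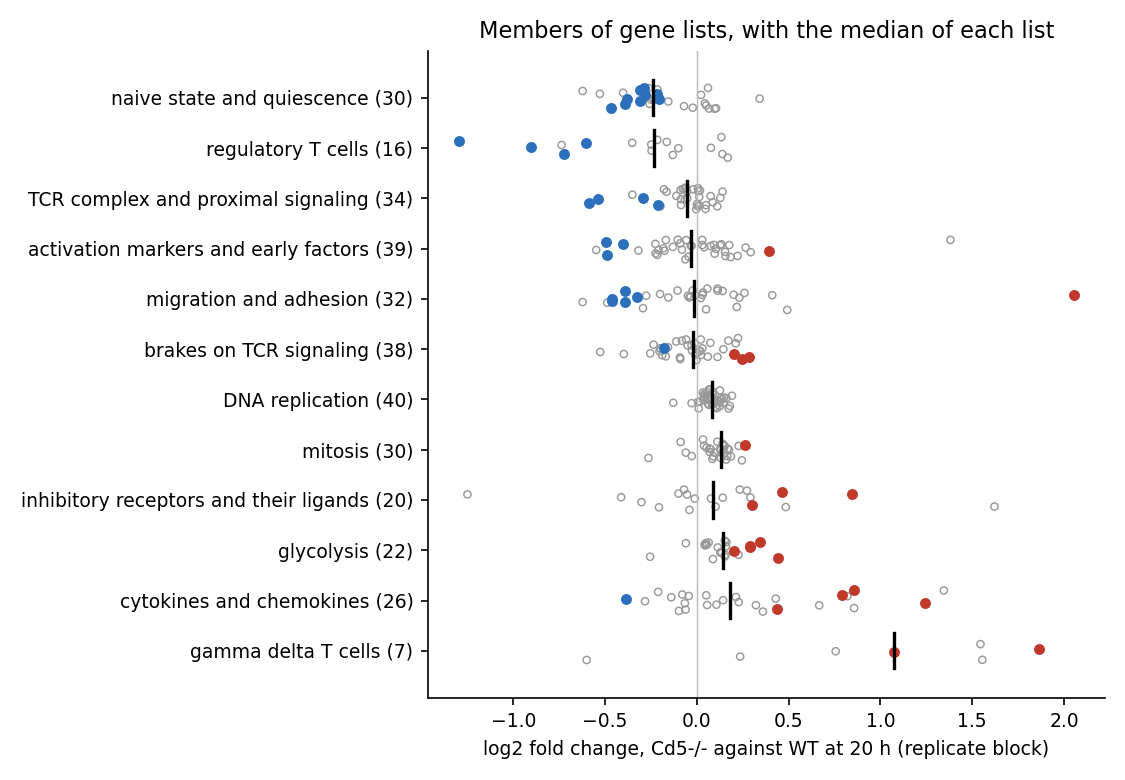
Log2 fold changes of *Cd5*-/- against WT at 20 h (horizontal axis) of the tested members of 12 gene lists, with the number tested in brackets. Filled points were called (red higher, blue lower), open points were not, and black bars are list medians. The bars run from -0.24 for naive state and quiescence to 1.08 for the 7 gamma delta T cell genes.

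Of 32 migration and adhesion genes 5 fell (15.6%, against 1.37% of all genes tested) and 1, *Gcnt1*, rose. Besides *Ccr7* they were the integrin genes *Itga4* (-0.46, SE 0.07, 5 of 6 fits) and *Itgb7* (-0.46, SE 0.07, 6 of 6), the selectin ligand *Selplg* (-0.39, SE 0.06, 6 of 6), and *Arhgap45* (-0.33, SE 0.08, 1 of 6). *Itga4* and *Itgb7* encode the chains of the gut homing integrin α4β7. *Itgb7* was at 135, 113, and 126 against 89.6, 83.9, and 98.4 CPM without overlap. Of 26 genes of apoptosis and survival 3 fell (11.5%), *Fas* (-0.39, SE 0.09), *Bcl2* (-0.34, SE 0.07), and *Birc2* (-0.21, SE 0.05), called in 1, 2, and 0 of the 6 fits. Of 47 interferon-stimulated genes 0 were called, with 12 at an unadjusted p under 0.05. Of the stress and handling genes, *Hspa5* rose (0.18, SE 0.04, 1 of 6 fits).

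Single genes of regulatory T cells fell and single genes of gamma delta T cells rose. In bulk RNA, fewer cells of a type and less RNA per cell cannot be told apart. Of 16 regulatory T cell genes 4 fell (25%, against 1.37% of all genes tested) and 0 rose (median -0.23). *Foxp3*, the lineage factor of regulatory T cells, was at 20.3, 11.4, and 6.17 CPM in WT and 7.28, 5.75, and 2.26 CPM in *Cd5*-/- cells (-1.30, SE 0.14, adjusted p = 0.000138, 6 of 6 fits). Its level varied from 6.17 to 20.3 CPM among the WT libraries, and 14.7% of its 50-base stretches are shared with *Flicr*, a noncoding RNA gene of the same locus. *Socs2* (-0.90, SE 0.12, 6 of 6 fits), *Ikzf4* (-0.72, SE 0.15, 2 of 6), and *Gpr83* (-0.60, SE 0.10, 5 of 6) fell as well. The summed level of the list ran from 2263 to 2525 CPM in WT and from 2217 to 2316 CPM in *Cd5*-/- cells, ranges that overlapped. It was lower in *Cd5*-/- cells in each same-numbered pair (2525 against 2217, 2263 against 2239, and 2443 against 2316 CPM). The list also holds *Il2ra* and *Ctla4*. Its mean sum in WT cells was 576 CPM at 0 h and 2410 CPM at 20 h, so it does not follow regulatory T cells alone. The part of these cells in the results above was not tested. At 4 h *Foxp3* was at 16.0, 11.0, and 8.20 against 11.8, 16.3, and 6.02 CPM.

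Of 7 tested gamma delta T cell genes, of 22 listed, 2 rose (28.6%, against 0.611% of all genes tested) and 0 fell. Of the 7, 6 lay above 0 and 1 below, at -0.60. The filter keeps a gene with enough reads in as many libraries as a group holds. A low gene can therefore be tested because it is high in a single group, which bears on this share and on the list median. *Trdc*, the constant segment of the TCR delta chain, was at 4.85, 3.69, and 4.00 against 8.49, 9.37, and 9.12 CPM (1.08, SE 0.19, adjusted p = 0.0074, 4 of 6 fits). *Tcrg-C2*, a constant segment of the gamma chain, was at 0.479, 0.442, and 0.343 against 1.75, 1.86, and 1.14 CPM (1.86, SE 0.36, adjusted p = 0.0128, 2 of 6 fits), and shares 25.4% of its 50-base stretches with other genes, chiefly its paralog *Tcrg-C1*. Without the block its adjusted p was 0.038, and the call was lost in 5 of the 6 fits that left out a library, all but that without *Cd5*-/- library 3 (adjusted p from 0.0703 to 0.223). *Tcrg-C4* was at 0.874, 0.111, and 0.761 against 2.16, 1.73, and 1.37 CPM and not called (1.56, SE 0.41, adjusted p = 0.0722). The groups did not overlap in any of these genes. The summed level of 21 of the listed genes was 7.59 to 9.39 CPM in WT and 15.4 to 17.1 CPM in *Cd5*-/- cells. *Trdc* differed at 4 h as well, with 20.8, 19.5, and 18.7 CPM in WT and 56.02, 49.6, and 55.9 CPM in *Cd5*-/- cells. At 20 h it was at 3.15, 4.00, and 5.30 CPM in *Cd6*-/- cells and at 9.04, 14.3, and 9.09 CPM in *Cd5*-/-*Cd6*-/- cells, so that the genotypes lacking CD5 had the higher levels. Of 77 variable genes of the TCR, 0 were called, with 10 at an unadjusted p under 0.05.

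Other cell types were examined by their markers. *Cd74*, the invariant chain of B cells and antigen-presenting cells, fell (-0.70, SE 0.10, adjusted p = 0.00234, 6 of 6 fits), the single B cell gene of 12 tested to be called. Of those 12 genes 10 lay below 0, with list medians of -0.50, 0.17, and -0.79 in pairs 1, 2, and 3. The B cell list summed to between 340.4 and 423 CPM in WT and between 335 and 426 CPM in *Cd5*-/- cells. Of the tested members of other lists, 4 of 5 myeloid and 5 of 6 erythroid and platelet genes lay below 0. Of 11 genes of CD8 T cells and NK cells, 5 lay below 0 and 6 above. Myeloid genes summed to between 153 and 207 CPM and between 143 and 190.5 CPM, and erythroid and platelet genes to between 9.74 and 46.7 CPM and between 2.74 and 26.4 CPM. Genes of CD8 T cells and NK cells summed to between 49.8 and 81.7 CPM in WT and between 67.7 and 107 CPM in *Cd5*-/- cells, and *Gzmb* was the member called. The ranges of all these sums overlapped between the genotypes. Within same-numbered pairs, however, the summed CD8 T cell and NK cell genes were higher in *Cd5*-/- cells in all 3 pairs (49.8 against 67.7, 60.9 against 107, and 81.7 against 90.7 CPM), and the summed myeloid genes were lower in all 3 (153 against 143, 171 against 161, and 207 against 190.5 CPM). The part of these cells in the changes of *Gzmb*, *Nkg7*, *Ccl5*, *Ccl3*, and *Ccl4* was not tested.

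Several genes with the lowest p or the largest change belonged to no list. *Rragd*, a Rag GTPase of the amino acid sensing branch of mTORC1, was at 17.8, 11.7, and 9.63 CPM in WT and 8.08, 5.57, and 4.69 CPM in *Cd5*-/- cells without overlap (-1.08, SE 0.11, adjusted p = 9.21e-05). *Adam19*, a membrane metalloprotease, was at 20.3, 15.3, and 7.54 against 8.89, 7.71, and 3.23 CPM (-1.11, SE 0.18, adjusted p = 0.0051). *Acsl6*, an acyl-CoA synthetase, was at 2.11, 2.43, and 1.83 against 5.16, 5.25, and 3.80 CPM (1.14, SE 0.19, adjusted p = 0.00468). These genes were called in 6 of 6 fits, and the first and last did not overlap between the groups. *Ramp1*, an accessory chain of neuropeptide receptors, had a log2 fold change of -0.89 (SE 0.14, 6 of 6 fits), *Spsb1* of -0.89 (SE 0.12, 6 of 6), and *Acvrl1*, a receptor of the TGF-β family, of -0.86 (SE 0.17, 3 of 6).

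The genes that 20 h of stimulation changes gave a reference for direction. In WT cells of the LAT experiment, a separate set of libraries, 3193 genes were higher and 3594 lower at 20 h than at 0 h at an adjusted p under 0.05 and a fold above 2. Of the genes higher on stimulation 3013 were tested here, and 48 were higher and 25 lower in *Cd5*-/- cells, with a median log2 fold change of 0.06. Of those lower on stimulation 2417 were tested, and 7 were higher and 81 lower, with a median of -0.08. The shares called among all genes tested were 0.611% higher and 1.37% lower, and among those lower on stimulation 0.29% and 3.35%.

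The 4 h libraries showed how far the 20 h difference was present earlier. With the replicate number as a block within each time, 63 genes were higher (0.419% of 15025) and 164 lower (1.09%) in *Cd5*-/- cells at 4 h. That fit took the 24 libraries of 4 h and 20 h together. It called far fewer genes at 20 h than the fit of the 12 libraries of 20 h, which gave the 20 h calls used here. The numbers called at 4 h and at 20 h are therefore not like for like. Of the genes called at 20 h, 54 of 80 higher and 134 of 179 lower had the same direction at 4 h, beside 55.1% of all 13103 genes tested at both times. Of these, 14 higher and 26 lower genes were called at both times in the same direction, and 1 was called in the opposite direction. *Carnmt1*, *Gm8116*, *Trdc*, *Tcrg-C2*, *Pfkp*, *Ptpn6*, *Itga6*, and *Grap2* were among those called at both times. *Ccr7* (-0.09, SE 0.12), *Egr3* (-0.12, SE 0.08), *Nr4a1* (0.04, SE 0.09), and *Foxp3* (-0.07, SE 0.26) were not called at 4 h. Of the 30 genes of the naive and quiescent state, 4 were called lower at 4 h and 0 higher, with a median of -0.19. The difference between the times was tested directly. Without a block, *Cd5* alone passed (0.0031% of the genes tested), with a difference in log2 fold change of -2.60 (adjusted p = 0.00727), as its level in *Cd5*-/- cells was 94.7, 150.1, and 61.6 CPM at 4 h. With the block within each time 10 genes passed (0.0666%), and *Ccr7*, *Egr3*, *Nr4a1*, and *Foxp3* were not among them.

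The *Cd5* knockout was also set against the *Cd6* knockout. In a direct contrast of *Cd5*-/- with *Cd6*-/- cells at 20 h, 42 genes (0.13%) were called without a block and 792 (6.04%) with it. The contrast uses the same *Cd5*-/- libraries as the comparison with WT, on which the genes below were chosen, so that a like direction in both is not independent evidence. With the block, *Egr3* (log2 difference -0.52, adjusted p = 5.23e-06), *Grap2* (-0.62, 1.79e-05), *Ccr7* (-0.37, 0.000169), *Foxp3* (-1.11, 0.000261), and *Nr4a1* (-0.45, 0.00538) were lower in *Cd5*-/- than in *Cd6*-/- cells. *Ccl3* (0.83, 0.00014), *Pfkp* (0.28, 0.00356), *Hk2* (0.27, 0.00619), and *Trdc* (1.12, 0.00229) were higher. *Tigit* (0.39, 0.115), *Gzmb* (0.31, 0.491), *Lag3* (0.31, 0.0719), and *Ifng* (-0.26, 0.689) did not pass the test between the knockouts.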

How the data were processed

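The authors sequenced stranded mRNA libraries of naive CD4+ T cells with single reads of 50 bases. Reads were trimmed with DimerRemover, mapped to GRCm38 with STAR, and counted per gene with featureCounts (version 1.6.0), and the labels' processing notes also name bcl2fastq 2.17.1.14. The deposited tables give raw read counts for each gene and library, neither normalized nor pooled. The annotation release, the strand setting, and the treatment of reads that match several genes are not given in the sources used here, so the count of a gene with a near-identical copy or an overlapping gene depends on unknown settings. Of 55385 gene identifiers 55144 matched the GENCODE annotation of GRCm38. All per-sample columns could be assigned by label.

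Counts were tested with edgeR (4.0.16) by quasi-likelihood with TMM factors and Benjamini-Hochberg adjustment, in all 36 libraries and the 32290 genes with at least 1 read, with 1 coefficient for each genotype and time. Genes were called at an adjusted p under 0.05. DESeq2 (1.42.0) was an alternative. Same-numbered WT and *Cd5*-/- libraries correlated in their deviations from the group means above 0.1 in all 3 pairs (lowest 0.268, or 0.104 with genes from 10 counts on), so the replicate number was taken to pair them, a pairing that comes from the data and not from a stated batch. The blocked fit used the 12 libraries of 20 h and the 13103 genes kept by filterByExpr, a choice made after seeing the data. In the same group, libraries differed by far more than counting noise (a chi-square of 27.5 to 106 per degree of freedom), and none was a duplicate. The edgeR fits without and with the block were also tested on simulated counts. Of 67 genes set to change 1.5-fold, 21 were recovered without the block and 59 with it. At 2-fold these were 51 and 65 of 67. Of the genes left unchanged, 20 of 31773 were called without the block and 14 of 12761 with it.

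Named genes were *Cd5* and *Cd6*, genes called in either fit (at most 15 in each direction by fold, with a mean of at least 50 counts, where over 30 were called), up to 10 in each direction with the lowest p that moved alike in 3 pairs, list members called or among the 4 of lowest p, and 15 fixed genes. Members and lists were chosen with earlier results of these data known. Counts and floors carry counting error only. Sequences were read from the GENCODE transcripts of GRCm38. Lists are described by counts and medians, with no test of a list. A few list members are not reported here by name.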

Additional observations from a re-analysis of the deposited data

Results flagged for a closer look

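The *Cd5*-/- effect (the log2 fold change of *Cd5*-/- against WT) differed between 20 h and 4 h in 10 genes, in the fit with the replicate number as a block within each time (edgeR quasi-likelihood test of the interaction, Benjamini-Hochberg adjustment over 15025 genes). Apart from *Cd5*, these genes were named for passing this test, and none passed it without the block. *Cd5* had the smallest p, with a difference of -2.56 (SE 0.25, adjusted p = 4.81e-05), from a log2 fold change of -3.93 at 4 h to -6.49 at 20 h.

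In 3 genes the effect was above 0 at 4 h and below 0 at 20 h. *Myb*, a transcription factor of progenitors and resting T cells, had a difference of -0.99 (SE 0.16, adjusted p = 0.0212), with a log2 fold change of 0.32 at 4 h and -0.67 at 20 h. *Sesn3*, a sestrin, differed by -0.61 (SE 0.09, adjusted p = 0.00547) and the kinase *Mapkapk3* by -0.40 (SE 0.07, adjusted p = 0.0435). *Myb*, *Sesn3*, and *Mapkapk3* were called lower at 20 h in the blocked fit of the 12 libraries of that time, and were not called at 4 h.

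In the other 6 genes the effect was below 0 at 4 h and above 0 at 20 h. They were the centromere gene *Cenpi*, with a difference of 1.21 (SE 0.20, adjusted p = 0.0212), the kinetochore gene *Ndc80*, with 1.07 (SE 0.18, adjusted p = 0.0212), the kinase *Pask*, with 1.29 (SE 0.18, adjusted p = 0.00547), mitochondrial phosphoenolpyruvate carboxykinase, *Pck2*, with 1.15 (SE 0.20, adjusted p = 0.0378), *Slamf6*, with 0.52 (SE 0.09, adjusted p = 0.0435), and *Syde2*, with 0.82 (SE 0.14, adjusted p = 0.0315). All 6 were called lower at 4 h. At 4 h the erythroid and platelet genes summed to between 1092 and 2023 CPM in WT and between 231 and 780.2 CPM in *Cd5*-/- cells, and B cell genes to between 599 and 1798 CPM and between 417 and 512 CPM, neither overlapping. At that time 11 of 20 B cell genes were called lower, and the mitosis list had a median log2 fold change of -0.84. The part of these cells in the 4 h falls was not tested. At 20 h, in the blocked fit of the 12 libraries of that time, *Cenpi* was called higher (0.27, adjusted p = 0.035) and the others were not called.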

How the results depend on the processing

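The number of genes called between *Cd5*-/- and WT cells at 20 h varied with the replicate block together with the libraries and genes that were fitted. Without a block it was 7, and 4 without TMM factors, 3 with filterByExpr, 3 with the 12 libraries of 20 h alone, 3 with the newer quasi-likelihood estimate of edgeR (added after seeing the data), and 22 without the doubtful 0 h libraries (number 2 of *Cd5*-/- and of *Cd6*-/-). *Wdfy1*, *Gcnt1*, *Tcrg-C2*, and *1110059E24Rik* were not called with filterByExpr, with the 12 libraries alone, or with the newer estimate. Leaving out each compared library gave 3 to 8. With the replicate block it was 17 in all 36 libraries, and 702 in the 6 compared libraries with every gene of at least 1 read. In the fit with 702 calls, edgeR found no spread of the dispersion between genes beyond its trend, and gave genes the trend value. The number called was 433 in those 6 with filterByExpr and 259 in the 12 libraries of 20 h, both added after seeing the data. At a fold above 2 the number was 6, and 3 with filterByExpr, 3 with the 12 libraries alone, 3 with the newer estimate, 17 without the doubtful 0 h libraries, 51, 29, and 24 under those 3 blocked fits in the same order, and 3 to 7 on leaving out each library.

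All alternatives of the blocked fit were added after seeing the data. Its 259 calls became 389 with DESeq2, 632 with every gene of at least 1 read, 433 with the 6 compared libraries, 66 with the 24 libraries of 4 h and 20 h, and 3 without the block, and 85 to 337 on leaving out each of the 12 libraries. RLE factors gave 255 and no TMM factors 288. The cause of these differences was not tested. The test between times called 1 gene, and 0 with DESeq2 or filterByExpr, 4 with the replicate block, 10 with the block within each time, and 0 to 3 on leaving out each library. The 0 came without *Cd5*-/- library 2 of 4 h. The contrast with *Cd6*-/- cells called 42, and 15 with filterByExpr, 101 with the block, 792 with the block in the 12 libraries, and 33 to 54 on leaving out each library. List members called were 2 beside *Cd5*, and 51 at a nominal p under 0.05, 4 with the block in 36 libraries, 0 without TMM factors, and 56 with the block in the 12 libraries. Within 10 Mb of *Cd5* 2 genes were called, 0 within 2 Mb, and 7 with the block.

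Of the 88 genes named, 8 changed direction without the block under at least 1 alternative. *Egr2*, close to 0, was at 0.00239 with DESeq2, 0.00146 with RLE factors, 0.00376 with the 12 libraries, 0.00207 with the newer estimate, and 1.59e-05 without the doubtful libraries. On leaving out each library, *Ctla4* ran from -0.139 to 0.311, *Egr2* ran from -0.223 to 0.189, *Myc* ran from -0.168 to 0.0404, *Cd69* ran from -0.0286 to 0.224, *Cd44* ran from -0.111 to 0.368, *Ubash3a* ran from -0.0357 to 0.158, *Bcl2* ran from -0.611 to 0.000899, and *Mki67* ran from -0.485 to 0.531 on the log2 scale. Depth limited the genes at few reads: 3 reads were worth up to 0.134 CPM, and *Gcnt1* and *Tcrg-C2* rested on 9 to 75 reads a library.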

Other observations

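Genes with a called fall at 20 h outside the lists and outside the rule for naming, chosen after their values were seen, included *Mov10*, an RNA helicase, at 26.8, 21.6, and 22.2 CPM in WT and 15.1, 14.2, and 10.9 CPM in *Cd5*-/- cells (log2 fold change -0.83, SE 0.13, adjusted p = 0.00449 with the replicate block), and *Tesc*, at 25.1, 18.0, and 26.3 against 12.6, 12.5, and 15.8 CPM (-0.75, SE 0.13, adjusted p = 0.0052). The groups did not overlap in either gene, and both were called in 6 of the 6 fits that left out a compared library. *Klf2*, a factor of naive T cell homing, was at 19.8, 16.6, and 14.0 against 13.2, 13.6, and 11.0 CPM and did not pass the test (-0.40, SE 0.12, adjusted p = 0.0953).

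The 0 h libraries carried the *Gm8116* signal in an uneven way. In the 0 h libraries labelled *Cd5*-/-, *Gm8116* was at 2.35, 0, and 2.05 CPM, and in those labelled *Cd6*-/- at 0.0631, 1.46, and 0.0453 CPM. *Gm2682* was at 0.379, 154, and 70.5 CPM in the libraries labelled *Cd5*-/- and at 151, 0.507, and 104 CPM in those labelled *Cd6*-/-. In *Gm8116* library 2 stood apart from the others of its label, as it did in *Cd5*. In *Gm2682* it did so among the libraries labelled *Cd6*-/-. Among those labelled *Cd5*-/-, the library at 0.379 CPM was far below the others, at 154 and 70.5 CPM.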
